A study of Caenorhabditis elegans with 43 samples.

Results

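The Caenorhabditis elegans piRNAs 21ur-296, 21ur-6682, 21ur-6516, 21ur-6297, 21ur-5300 and 21ur-4954 described here are high in oogenesis, in snpc-1.3 mutants, or both, and were followed across the small RNA libraries of the study. These 6 members were taken by name from the 14714 piRNAs of chromosome IV in the count table, of which 13982 had a count in at least 1 library and were tested. All 6 members were among those tested. The names came from rankings of these same libraries. In WT oog. over WT spe., 21ur-6516 and 21ur-6297 ranked 1 and 2 by p among the piRNAs called higher with libraries that did not overlap. In snpc-1.3(-) spe. over WT spe., 21ur-296 and 21ur-6682 held ranks 1 and 2 in that direction. In snpc-1.3(2xtbs) oog. over WT oog., 21ur-5300 and 21ur-4954 held ranks 1 and 2 among those called lower. Just outside were 21ur-667 at 6.81, 21ur-10318 at 2.97 and 21ur-3910 at -1.27 on the log2 scale, each the next distinct piRNA in its ranking. Values in the comparison that chose a member are therefore given as a description, without a test.

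piRNAs are short germline RNAs that the Argonaute PRG-1 carries to foreign and self transcripts to silence them. In C. elegans most are transcribed one by one from chromosome IV, each from its own small promoter, by a complex that includes the DNA-binding protein SNPC-4, and their mature forms usually begin with uridine. The hermaphrodite germline makes sperm first and oocytes later, and male and female piRNAs are those enriched at one of these stages. SNPC-1.3 is a variant of a subunit of the SNPC-4 complex found mainly in the male germline, and TRA-1 is a regulator of sex determination that binds sites upstream of snpc-1.3.

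Small RNA came from whole worms grown at 20°C on plates. The snpc-1.3(2xtbs) oog. group (3 libraries) held gravid adults at 72 hr with 2 mutated TRA-1 binding sites, and its allele name, xk36, also carries a 3xFlag tag on snpc-1.3a. The WT oog. group (3 libraries) held N2 gravid adults at 72 hr. The snpc-1.3(-) spe. group (2 libraries) held L4 larvae at 48 hr with the loss-of-function allele xk27, and the WT spe. group (3 libraries) held N2 L4 larvae at 48 hr. The study calls small RNA replicates biological, but no label says that they were separate cultures, so p-values measure only the spread between these libraries. Libraries of each time point shared a flow cell, so sequencing run and stage cannot be told apart, and in whole worms fewer germ cells cannot be told apart from less piRNA per cell.

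CPM stands for counts scaled to a fixed library total. Total counts on features ranged between 4336397 and 22346249 per library, and counts on chromosome IV piRNAs between 466066 and 3061763. Small RNA counts on snpc-1.3 itself were 0 and 1 in snpc-1.3(-) spe., against 1, 5 and 2 in WT spe., too few to check the labels. The male piRNAs of the study's qPCR panel, 21ur-1258, 21ur-3142 and 21ur-3766, were called lower in snpc-1.3(-) spe. than in WT spe. in 3 of 3 cases. Of all piRNAs tested, 23.7% were called lower there. The study set the thresholds used here by qPCR of these piRNAs too, so these calls are not an independent check of the labels. The 8 embryonic miRNA genes mir-35 to mir-42 summed to 126829 to 170250 CPM of all features in snpc-1.3(2xtbs) oog. and to 116153 to 138398 in WT oog. They summed to 4491 to 4605 in snpc-1.3(-) spe. and to 4509 to 5214 in WT spe., so they moved with stage. All members were also higher in WT oog. than in WT spe. In snpc-1.3(-) spe., 21ur-296 and 21ur-6682, chosen on that comparison, and 21ur-5300 and 21ur-4954 were higher than in WT spe. The libraries of 21ur-6516 and 21ur-6297 overlapped between these spe. groups. The 4 soma miRNAs mir-1, let-7, lin-4 and mir-71 summed to 13624 to 16902 CPM in WT oog., against 34056 to 43866 CPM in WT spe. Chromosome IV piRNAs took 16.0% to 20.2% of counts in WT oog., against 8.4% to 10.7% in WT spe. The part of these in the stage values was not tested.

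The mature sequences are shown because the members share no obvious sequence, and they are written 5′ to 3′ with bases 2 to 8 in capitals. All were read from the RefSeq genome of the build the files use, WBcel235, at the annotated positions on chromosome IV.
21ur-296: tCTACTTGttgaataatggta
21ur-6682: cTGACTTAgatattctgcatg
21ur-6516: tCATTCCAtacattttaacaa
21ur-6297: tTTCAAAGtgatttttgttca
21ur-5300: aTCTATTTcacatttttatgt
21ur-4954: tTTGGGTTtctttaaatatcc

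Each of the 6 was 21 bases long and occurred once on chromosome IV. No 2 members shared bases 2 to 8, and between 1 and 4 other annotated piRNAs had the same bases 2 to 8 as a member. GC content ranged from 19.0% to 38.1%. The annotated first base was T in 4 members, against 96.2% of the 14714 piRNAs. It was C in 21ur-6682 and A in 21ur-5300, and T was the second base in both. Whether their annotated starts lie 1 base early was not tested, and if so their bases in capitals, and positions upstream, would shift by 1.

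The members lay apart on chromosome IV. 21ur-296 (WBGene00048349) lay at IV:13863445-13863465 on the minus strand, in an intron of vamp-8, a gene on the same strand whose small RNA counts were 0 to 5 per library. 21ur-4954 (WBGene00045839) lay at IV:14608420-14608440 on the plus strand, where it overlapped 21ur-11241 at IV:14608417-14608437. Their counts were identical in every library, so reads of the pair cannot be told apart. 21ur-6682 (WBGene00168021) lay at IV:15903595-15903615 and 21ur-5300 (WBGene00048697) at IV:16709410-16709430, both on the plus strand and outside other annotated genes. 21ur-6516 (WBGene00172579) lay at IV:16787523-16787543 on the minus strand, antisense to a coding exon of Y43D4A.6, which had 0 to 11 counts per library. 21ur-6297 (WBGene00168748) lay at IV:17144472-17144492 on the minus strand, in an intron of Y116A8C.40 and 2 bases from its exon at IV:17144109-17144470.

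Upstream of most piRNAs lies a core promoter motif, GTTTCA. The 60 bases before each member, written in the direction of transcription, are shown because only some members had it, and the motif is in capitals.
21ur-296: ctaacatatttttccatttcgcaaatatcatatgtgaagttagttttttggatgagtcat
21ur-6682: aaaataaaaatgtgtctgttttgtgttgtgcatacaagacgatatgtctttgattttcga
21ur-6516: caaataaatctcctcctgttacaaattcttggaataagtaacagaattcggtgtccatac
21ur-6297: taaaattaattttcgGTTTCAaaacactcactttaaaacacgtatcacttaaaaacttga
21ur-5300: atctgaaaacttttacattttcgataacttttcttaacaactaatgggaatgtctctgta
21ur-4954: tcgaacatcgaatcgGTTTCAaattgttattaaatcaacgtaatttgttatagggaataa

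In the same order the windows were IV:13863466-13863525 (minus strand), IV:15903535-15903594 (plus), IV:16787544-16787603 (minus), IV:17144493-17144552 (minus), IV:16709350-16709409 (plus) and IV:14608360-14608419 (plus) of WBcel235. The motif, searched on the strand of the piRNA only, was found in 2 of the 6 windows, those of 21ur-6297 and 21ur-4954. In both it began at position -45 from the annotated first base, and in both the 8 bases were CGGTTTCA. The study associates a C at the first of these 8 bases with male piRNAs, and both members had this C. Of all 14714 piRNAs, 64.7% had GTTTCA in this window and 3.36% had CGGTTTCA. The share with that C and any second base is not given here. Among the 4278 piRNAs called higher in WT oog. than in WT spe., 50.8% had GTTTCA. The 10 nearest piRNAs of 21ur-6516, 21ur-6297 and 21ur-4954 had it in 10 of 10 cases each, those of 21ur-296 in 6, of 21ur-5300 in 5 and of 21ur-6682 in 4. A match describes letters in the window and is not evidence of a used promoter.

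Member levels are CPM of chromosome IV piRNA counts, after scaling by the trimmed mean of M-values (TMM). In WT oog. the members ranked between 518 (21ur-6516) and 3042 (21ur-4954) of 13982 piRNAs by mean CPM. They are given in the 3 pairs that the rankings chose, so what the 2 of a pair share in the comparison that ranked them is not a finding.

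**Figure D1:**
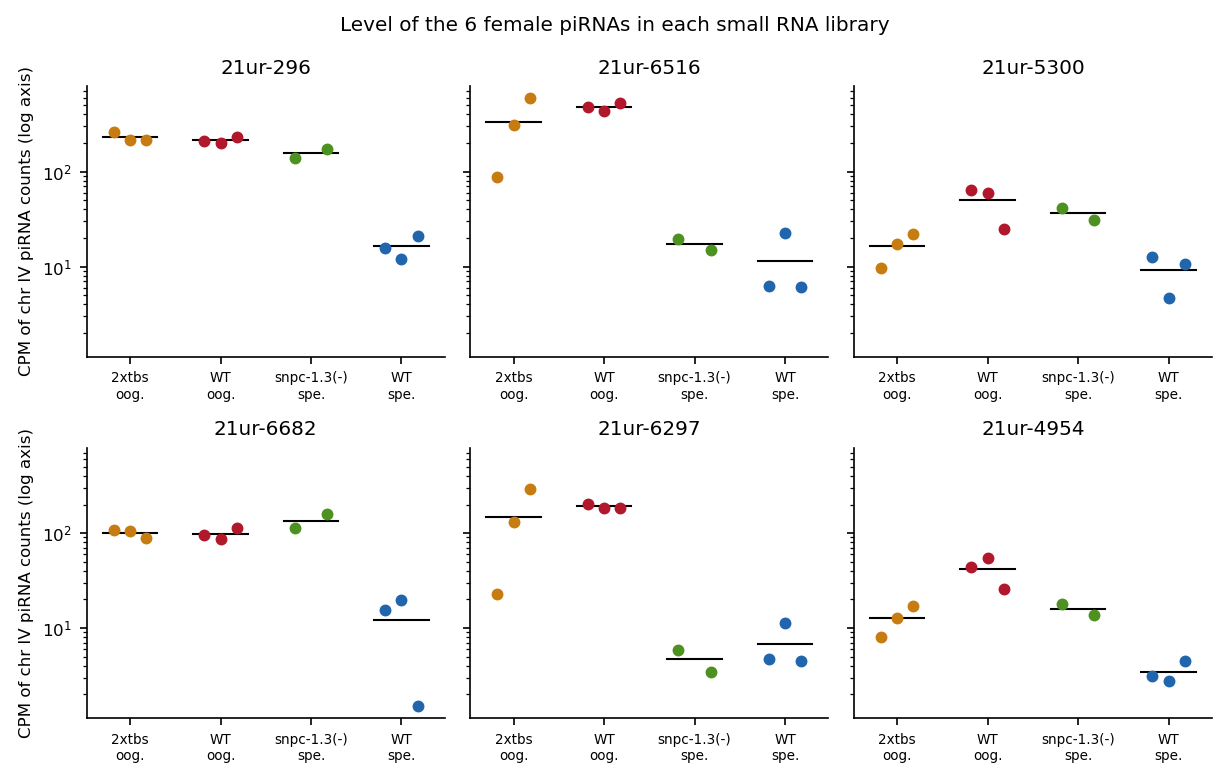
Level of each of the 6 piRNAs by library, as CPM of chromosome IV piRNA counts on a log axis; points are libraries and lines are group means. For 21ur-296 and 21ur-6682 the snpc-1.3(-) spe. libraries sit above 100 CPM, while for 21ur-6516 and 21ur-6297 they sit beside WT spe., below 20 CPM.

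The first pair was high in every group except WT spe. 21ur-296 had 261, 216 and 215 CPM in snpc-1.3(2xtbs) oog., against 211, 203 and 232 CPM in WT oog. It had 138 and 174 CPM in snpc-1.3(-) spe., against 15.6, 12.1 and 21.1 CPM in WT spe. The 2 oog. groups overlapped, snpc-1.3(-) spe. lay below both, and WT spe. lay far below all others. The mean in snpc-1.3(-) spe. was 72.4% of that in WT oog., 156 ± 25.2 CPM (SD, n = 2) against 215 ± 15.1 CPM (SD, n = 3).

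21ur-6682 had 107, 105 and 89.4 CPM in snpc-1.3(2xtbs) oog., against 95.5, 87.5 and 114 CPM in WT oog. It had 112 and 159 CPM in snpc-1.3(-) spe., against 15.6, 19.6 and 1.51 CPM in WT spe. Here snpc-1.3(-) spe. overlapped WT oog., with a mean 137% as high, and WT spe. lay below every other library. The third WT spe. library rests on 1 count, and its level was the lowest of the 3.

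The second pair was high in both oog. groups and low in both spe. groups. 21ur-6516 had 87.2, 312 and 592 CPM in snpc-1.3(2xtbs) oog., against 485, 437 and 525 CPM in WT oog. It had 19.7 and 15.0 CPM in snpc-1.3(-) spe., against 6.25, 22.4 and 6.03 CPM in WT spe. The spe. groups overlapped, and snpc-1.3(-) spe. averaged 3.6% of WT oog. The snpc-1.3(2xtbs) oog. libraries spread 6.79-fold, against 1.20-fold in WT oog.

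21ur-6297 had 22.7, 130 and 295 CPM in snpc-1.3(2xtbs) oog., against 204, 185 and 183 CPM in WT oog. It had 5.91 and 3.47 CPM in snpc-1.3(-) spe., against 4.69, 11.2 and 4.52 CPM in WT spe. Again the spe. groups overlapped, with snpc-1.3(-) spe. at 2.46% of WT oog. The snpc-1.3(2xtbs) oog. libraries spread 12.98-fold, wider than 99.87% of 6086 piRNAs (those averaging 10 CPM or more), whose median spread in that group was 1.45-fold.

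The third pair was highest in WT oog. and lower in snpc-1.3(2xtbs) oog. 21ur-5300 had 9.73, 17.5 and 21.9 CPM in snpc-1.3(2xtbs) oog., against 64.2, 60.3 and 25.02 CPM in WT oog. It had 41.4 and 31.2 CPM in snpc-1.3(-) spe., against 12.5, 4.67 and 10.6 CPM in WT spe. The snpc-1.3(-) spe. libraries lay inside the WT oog. range, and snpc-1.3(2xtbs) oog. overlapped WT spe. The third WT oog. library was well below the other two.

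21ur-4954 had 8.11, 12.7 and 17.2 CPM in snpc-1.3(2xtbs) oog., against 44.3, 54.5 and 25.7 CPM in WT oog. It had 17.7 and 13.9 CPM in snpc-1.3(-) spe., against 3.13, 2.80 and 4.52 CPM in WT spe. The snpc-1.3(2xtbs) oog. and snpc-1.3(-) spe. libraries overlapped, between WT oog. above and WT spe. below. In snpc-1.3(-) spe. the mean was 38.1% of WT oog., against 72.9% for 21ur-5300.

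The stage comparison asks how a piRNA differs between oogenesis and spermatogenesis. The members were 2.54 (SE 0.37) to 5.21 (SE 0.31) higher in WT oog. than in WT spe. on the log2 scale, with 21ur-5300 lowest and 21ur-6516, at 37.1-fold, highest. 21ur-6297 was 4.66 (SE 0.33) higher, 21ur-296 3.76 (SE 0.30), 21ur-4954 3.6 (SE 0.46) and 21ur-6682 2.90 (SE 0.31). The WT oog. and WT spe. libraries did not overlap for any member, which was a condition of the ranking for 21ur-6516 and 21ur-6297. The share of all piRNAs without overlap is not given here, so this is a description. Over all piRNAs tested by edgeR's quasi-likelihood test with Benjamini-Hochberg adjustment, 30.6% were called higher and 25.5% lower in WT oog. A call needed a log2 change of at least 0.26 in size and an adjusted p of at most 0.05. The median of the 6086 piRNAs was 0.84 higher, against 0.36 over all tested, and across the scalings tried this median lay between -0.14 and 1.72. Relative to it the members were 1.63 to 4.53 higher over these settings. Without WT spe. replicate 2, the log2 change of 21ur-6516 was 6.28 and that of 21ur-6297 was 5.35.

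The comparison of snpc-1.3(-) spe. with WT spe. asks which piRNAs change when SNPC-1.3 is lost during spermatogenesis. 21ur-6682 was 3.37 (SE 0.33) and 21ur-296 3.30 (SE 0.32) higher in snpc-1.3(-) spe. on the log2 scale. 21ur-4954 was 2.16 (SE 0.61) and 21ur-5300 2.04 (SE 0.44) higher. The 2 most oogenic members did not share this: 21ur-6516 differed by 0.39 (SE 0.46), with values of -0.09 to -0.40 under 6 of 7 other tools, scalings, filters and fits, and 21ur-6297 by -0.74 (SE 0.67). Without WT spe. replicate 2 these were 1.45 and -0.06. For both, the libraries of the groups overlapped, so 4 of the 6 members were higher in snpc-1.3(-) spe. Of these, 21ur-296 and 21ur-6682 had been chosen on this comparison, so the count is not a finding. Of all piRNAs tested, 25.6% were called higher and 23.7% lower in snpc-1.3(-) spe., and the median of the 6086 piRNAs was 0.78 higher, against 0.00 over all 13982 tested. Across the scalings tried the median of the 6086 lay between -0.02 and 0.78. Relative to it, 21ur-296 was 2.49 to 2.57 and 21ur-6682 2.56 to 2.68 higher over the settings tried, while 21ur-6516 was -0.39 to -0.13 and 21ur-6297 -1.53 to -1.23.

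**Figure D2:**
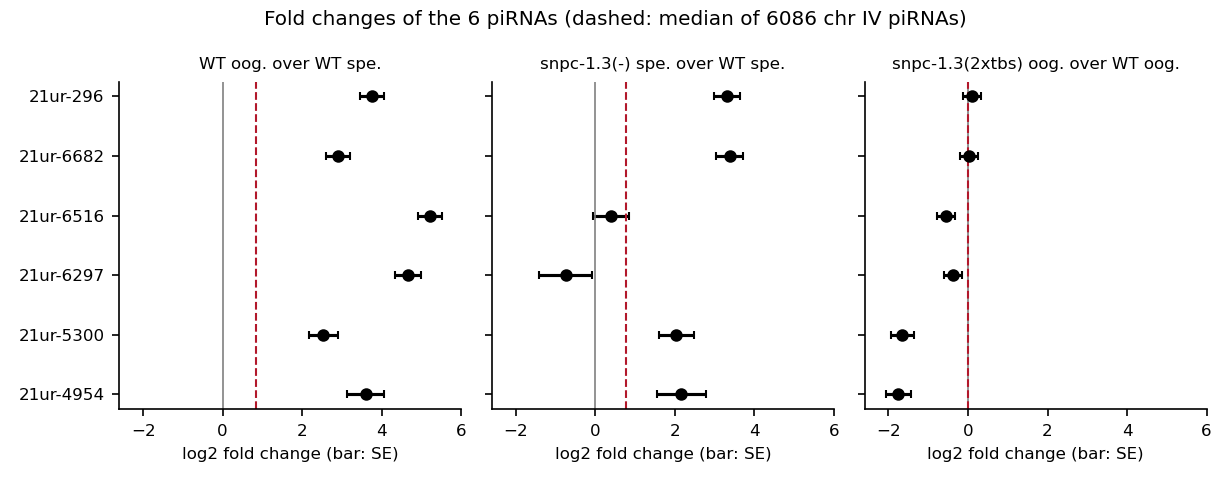
Log2 fold change of each piRNA in the 3 comparisons, with its standard error as a bar; the dashed line is the median of the 6086 piRNAs averaging 10 CPM or more. In snpc-1.3(-) spe. over WT spe., 21ur-6516 (0.39) and 21ur-6297 (-0.74) lie left of the median of 0.78, and the other 4 lie right of it.

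The last comparison, snpc-1.3(2xtbs) oog. over WT oog., asks what changes in oogenesis when some of the TRA-1 binding sites upstream of snpc-1.3 are mutated. It shares the WT oog. libraries with the stage comparison. Of all piRNAs tested, 11.3% were called higher and 4.47% lower, and the median piRNA differed by 0.00. 21ur-5300 at -1.66 (SE 0.29) and 21ur-4954 at -1.76 (SE 0.31), or 0.317 and 0.295 times WT oog., had been chosen on this comparison. That their libraries did not overlap between the groups was a condition of that ranking.

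Of the other 4 members, none passed the edgeR test as set up here or DESeq2, and 1 had an unadjusted p under 0.05. 21ur-296 differed by 0.10 (95% interval -0.33 to 0.53, edgeR adjusted p = 0.834) and 21ur-6682 by 0.03 (-0.41 to 0.48, edgeR adjusted p = 0.979), and both turned negative when scaled to miRNA or all-feature totals. 21ur-6516 differed by -0.55 (-0.99 to -0.12, edgeR adjusted p = 0.0723, unadjusted 0.0127). 21ur-6297 differed by -0.37 (-0.81 to 0.06, edgeR adjusted p = 0.282). These last 2 turned on the scaling, the fit and single libraries. 21ur-6516 passed with miRNA totals (-0.96, edgeR adjusted p = 0.00255), all-feature totals (-0.82, 0.00612) and only the 2 groups fitted (-0.56, 0.0396). 21ur-6297 passed with miRNA totals (-0.79, edgeR adjusted p = 0.0264). Without snpc-1.3(2xtbs) oog. replicate 3 they were at -1.28 (edgeR adjusted p = 5.6e-06) and -1.34 (edgeR adjusted p = 2.79e-06), and without replicate 1 at -0.09 (edgeR adjusted p = 0.884) and 0.15 (edgeR adjusted p = 0.754). Replicate 1 was also the library with the highest embryonic miRNA level, 170250 CPM of all features against 134336 and 126829 in the other two, and the part of this in the result was not tested.

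The female piRNAs of the study's qPCR panel, 21ur-1848, 21ur-2502 and 21ur-4817, give the same comparisons for a list chosen by the study. The study set its thresholds, which are used here, by the qPCR of this panel, so the panel's calls are not independent evidence. They were called higher in WT oog. than in WT spe. in 3 of 3 cases, by 1.25 to 2.25 on the log2 scale. They were called higher in snpc-1.3(-) spe. than in WT spe. in 3 of 3 cases, by 1.79 to 1.97. In snpc-1.3(2xtbs) oog. 0 of 3 were called, with changes of -0.11 to -0.22 against WT oog. and edgeR adjusted p from 0.596 to 0.829. Set against all features in place of piRNAs, the panel summed to 146 to 191 CPM in snpc-1.3(2xtbs) oog. and to 211 to 266 CPM in WT oog., with no overlap. All chromosome IV piRNAs took 13.4% to 15.5% of counts in snpc-1.3(2xtbs) oog. and 16.0% to 20.2% in WT oog. These did not overlap either, so the lack of overlap was not particular to the panel.

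Neighbours were the 5 nearest piRNAs on each side of a member that did not overlap it, 60 in all, of which 59 were tested, at 44 to 10063 bases. Their values were not used in choosing the members. Some of them overlap one another and have the same counts, so the 59 hold 47 distinct count patterns. In WT oog. over WT spe., 19 of 59 (32.2%) were called higher and 12 (20.3%) lower, against 30.6% and 25.5% of all piRNAs tested. In snpc-1.3(-) spe. over WT spe., 18 (30.5%) were called higher and 12 (20.3%) lower, against 25.6% and 23.7%. In snpc-1.3(2xtbs) oog. over WT oog., 5 (8.5%) were called higher and 1 (1.7%) lower, against 11.3% and 4.47%. In this fit these shares were near those of all piRNAs tested, also among the 196 tested within 5 kb. There 68 (34.7%) were called higher and 50 (25.5%) lower in WT oog.

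**Figure D3:**
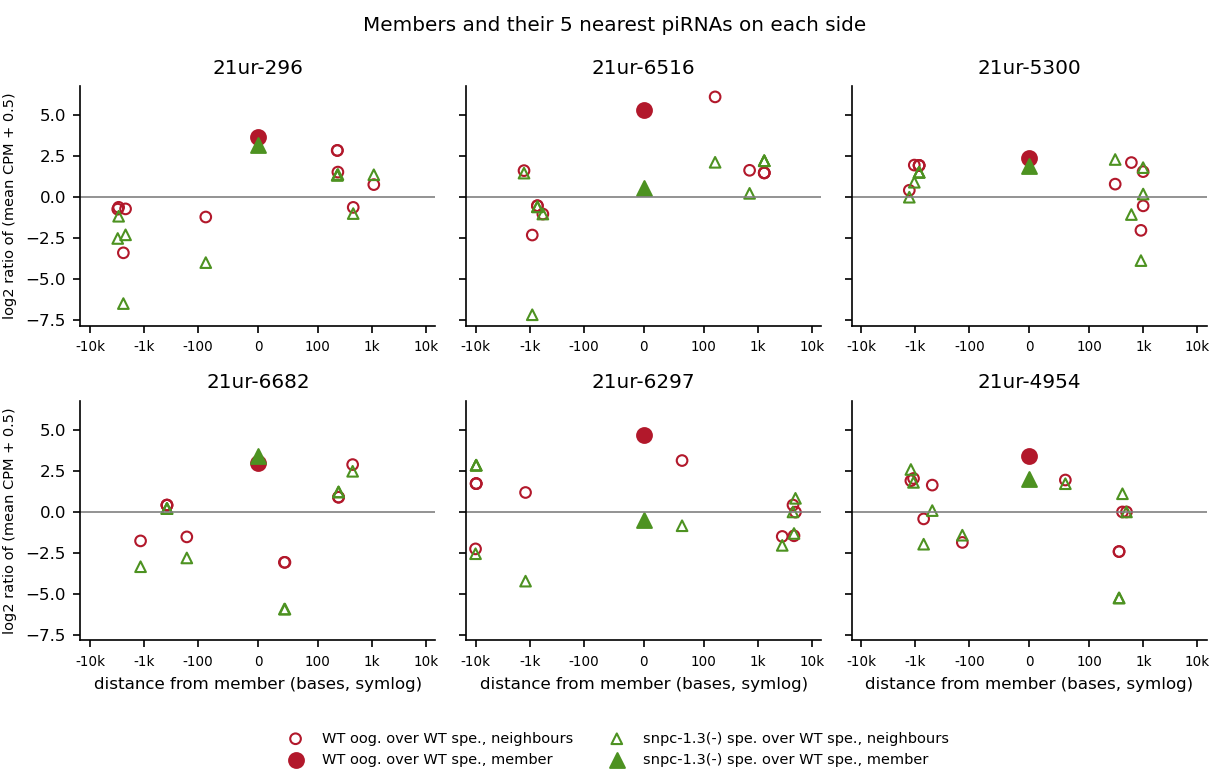
Each member (filled, at distance 0) and its 5 nearest piRNAs on each side (open), by distance in bases on a symmetric log axis and by the log2 ratio of mean CPM + 0.5; circles are WT oog. over WT spe. and triangles are snpc-1.3(-) spe. over WT spe. Neighbours lie on both sides of 0 around every member.

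The closest neighbours often differed from the member. 21ur-7735, 44 bases from 21ur-6682 on the opposite strand, had 0 counts in snpc-1.3(-) spe., against 70 in WT spe., and 19 counts in WT oog. 21ur-6943, on the other side, had 0 counts in snpc-1.3(-) spe., against 9 in WT spe. 21ur-2095, 87 bases from 21ur-296 on the opposite strand, had 0 counts in snpc-1.3(-) spe., against 19 in WT spe. On its other side 21ur-15221 averaged 45.7 CPM in WT oog. and 15.6 CPM in snpc-1.3(-) spe., against 5.87 CPM in WT spe. Of the 59 neighbours tested, 18 (30.5%) had 0 counts in snpc-1.3(-) spe., against 26.7% of all 13982 piRNAs tested, so such neighbours were about as common as elsewhere.

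Beside 21ur-4954, 21ur-1705 averaged 330 CPM in WT oog. and 282 CPM in snpc-1.3(-) spe., against 85.0 CPM in WT spe. 21ur-1244, on the other side, averaged 1.87 CPM in WT oog. and 2.72 CPM in snpc-1.3(-) spe., against 8.12 CPM in WT spe. Beside 21ur-5300, 21ur-13966 averaged 22.2 CPM in WT oog. and 16.5 CPM in snpc-1.3(-) spe., against 5.42 CPM in WT spe., and 21ur-646 had 5 counts in all libraries. Left of 21ur-6516, 21ur-5461 had 2 counts in all libraries. Left of 21ur-6297, 21ur-5666 averaged 916 CPM in WT oog. and 20.9 CPM in snpc-1.3(-) spe., against 402 CPM in WT spe.

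On the right of 21ur-6516 and 21ur-6297 lay same-strand piRNAs that were likewise high in WT oog. and low in both spe. groups. 21ur-667, 163 bases from 21ur-6516, had 33, 89 and 244 counts in snpc-1.3(2xtbs) oog., against 283, 242 and 96 in WT oog. It had 5 and 2 counts in snpc-1.3(-) spe., against 0, 0 and 2 in WT spe. On these few counts 21ur-667 was called higher in snpc-1.3(-) spe. (2.50 on the log2 scale, edgeR adjusted p = 0.0257), while the libraries of 21ur-6516 overlapped. Within WT oog., 21ur-667 was lowest in replicate 3, at 64.9 CPM, where 21ur-6516 was highest, at 525 CPM. 21ur-13456, 64 bases from 21ur-6297, had 30, 131 and 177 counts in snpc-1.3(2xtbs) oog., against 174, 194 and 106 in WT oog. It had 3 and 3 counts in snpc-1.3(-) spe., against 9, 10 and 2 in WT spe. Both were lowest in replicate 1 of snpc-1.3(2xtbs) oog.

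The protein-coding gene Y116A8C.40 around 21ur-6297 followed it too. It had 248, 789 and 1101 small RNA counts in snpc-1.3(2xtbs) oog., against 971, 1038 and 736 in WT oog. It had 6 and 14 counts in snpc-1.3(-) spe., against 18, 34 and 7 in WT spe. Whether any of the reads on 21ur-6297 belong to small RNAs of this gene was not tested, since the counts give no read positions.

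**Figure D4:**
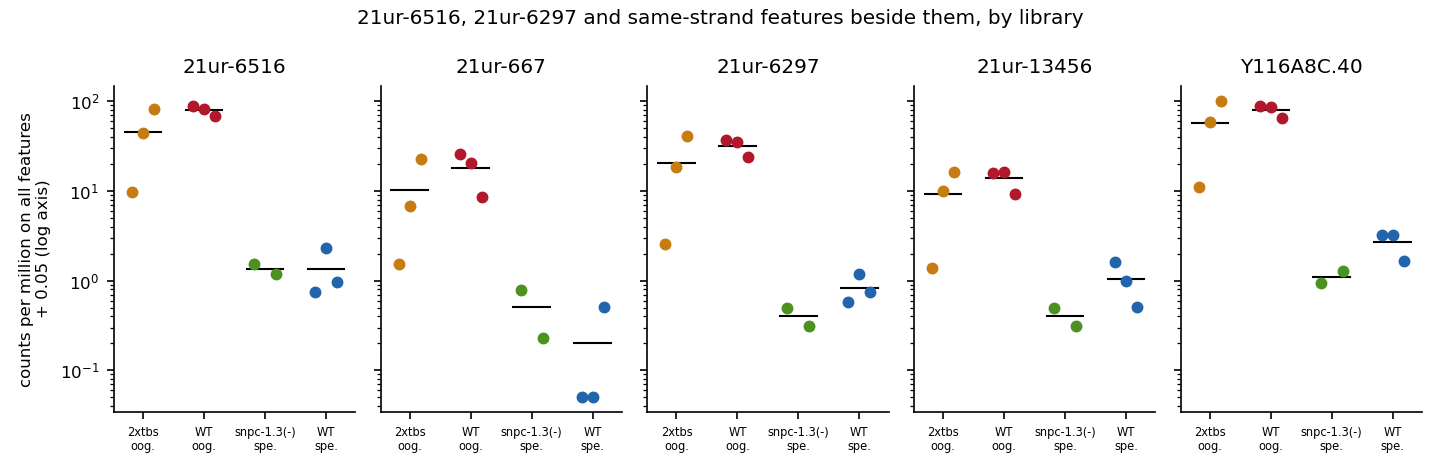
21ur-6516, 21ur-6297 and the same-strand features beside them, as CPM of all features plus 0.05 on a log axis; points are libraries and lines group means. In all 5 features replicate 1 of snpc-1.3(2xtbs) oog. is the lowest oog. library, 11.1 for Y116A8C.40 against 64.6 to 87.8 in WT oog.

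The piRNAs with the most similar pattern were found by Pearson's r of log2(CPM + 0.5) over the 11 libraries, among piRNAs averaging 10 CPM or more. The libraries share stage and depth, so r is a description. By Spearman's rho, 1 of the 12 piRNAs named below, 21ur-13456, stayed among the 2 most similar to its member. The most similar by r to 21ur-296, 21ur-8427, ranked 960 of 6080 candidates by rho. 21ur-8427 (r = 0.988) and 21ur-3029 (0.987) came closest to 21ur-296, and 21ur-1891 (0.986) and 21ur-331 (0.983) to 21ur-6682. 21ur-13456 (0.965), its right-hand neighbour, and 21ur-15087 (0.940) came closest to 21ur-6297. 21ur-1021 and 21ur-6001, which overlap and have the same counts, came closest to 21ur-6516 (0.962). Each averaged 142 CPM in WT oog. and 75.4 CPM in WT spe., against 482 and 11.6 CPM for 21ur-6516. 21ur-10633 (0.966) and 21ur-2083 (0.961) came closest to 21ur-5300, and 21ur-8029 (0.974) and 21ur-1188 (0.968) to 21ur-4954. Between members, r was 0.98 for 21ur-6516 and 21ur-6297, 0.912 for 21ur-5300 and 21ur-4954, and 0.835 for 21ur-296 and 21ur-6682. Across these pairs it ran from 0.426 (21ur-6297 and 21ur-5300) to 0.815 (21ur-296 and 21ur-4954), so the weakest pair was little closer than some members of different pairs.

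SNPC-1.3 binding was measured at 48 hr in liquid culture by Flag ChIP-seq, with an IP and an input in each of 2 replicates per genotype. The genotypes were SNPC-4-depleted worms (snpc-1.3::3xflag; snpc-4::aid, with TIR1 driven in the germline and auxin added before collection), snpc-1.3::3xflag worms and untagged N2 worms. For the SNPC-4-depleted libraries the Flag allele stands in the titles and descriptions but not in the genotype field. Values are for the 1 kb bin holding the first base of each member, and only bins with IP above a constant are listed. Each bin holds the first bases of 2 to 9 piRNAs, so binding at one piRNA cannot be separated from its neighbours.

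All 6 bins were listed in snpc-1.3::3xflag in both replicates. So were 5145 and 5101 bins of the 2 piRNA clusters, against 2025 and 1695 in N2, so being listed was not particular to the members. IP over input ranged from 1.33 (21ur-6297) to 2.20 (21ur-4954) in replicate 1 and from 1.62 (21ur-6297) to 2.90 (21ur-4954) in replicate 2. The median of all listed bins in the 2 piRNA clusters was 1.55 and 1.65. The bins of 5 of the 6 members were above it in both replicates, and the bin of 21ur-6297 was below it in both. The bins of 21ur-296 and 21ur-6682, whose levels were higher in snpc-1.3(-) spe. than in WT spe., stood at 1.80 and 2.11 in replicate 1 and at 2.02 and 2.40 in replicate 2.

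In N2 only the bins of 21ur-6516 and 21ur-6297 were listed, with IP over input from 0.973 to 1.06. The log2 ratio of snpc-1.3::3xflag over N2 at the bin of 21ur-6516 was 0.98 and 1.03, and at the bin of 21ur-6297 it was 0.40 and 0.61. The median of cluster bins listed in both genotypes was 0.42 and 0.34. At the other 4 bins the snpc-1.3::3xflag IP was 18.9 to 30.7 CPM, against N2 listing constants of 10.5 CPM. The snpc-1.3::3xflag constants were also 10.5 CPM, so any bin listed there lies above about this value. In SNPC-4-depleted worms the bins of 21ur-6516 and 21ur-6297 were listed in both replicates at 0.919 to 1.07, that of 21ur-6682 only in replicate 1 at 1.04, and the other 3 in neither. With 2 replicates per genotype no test was made.

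**Figure D5:**
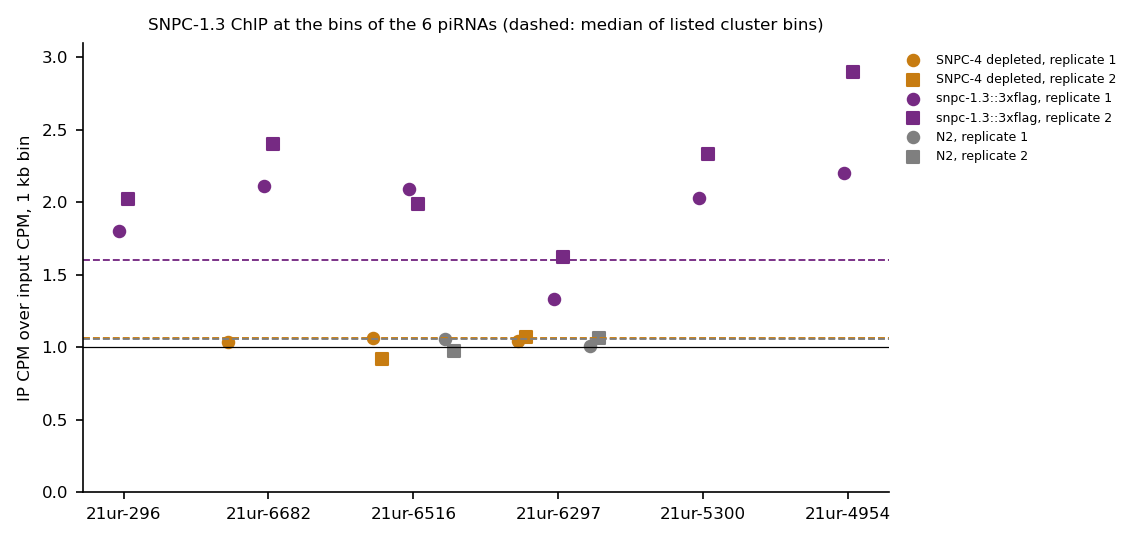
IP CPM over input CPM in the 1 kb bin of each piRNA; circles are replicate 1 and squares replicate 2, a missing point is a bin that was not listed, and dashed lines are the mean over both replicates of the median of listed cluster bins. The snpc-1.3::3xflag points lie between 1.33 and 2.90, and the listed SNPC-4-depleted and N2 points between 0.919 and 1.07.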

How the data were processed

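The members, gene lists and tests were chosen with earlier results of these data known. For small RNA-seq the authors trimmed reads with Trimmomatic 0.39, kept a range of short lengths, aligned them to WBcel235 with Bowtie 1.1.1 without mismatches, reporting a limited number of places per read, and counted them with featureCounts (Subread 1.6.3), so that a read counts at every reported place and feature. The deposited values are raw counts. Counts of 13982 chromosome IV piRNAs with at least 1 count entered 1 quasi-likelihood fit of all 4 groups (edgeR 4.0.16, R 4.3.3, legacy dispersion), scaled by TMM, with p-values adjusted over the same piRNAs. DESeq2 1.42.0 was an alternative. The fit was tested on simulated data. Reads carried no molecular identifiers.

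For ChIP-seq the authors trimmed reads with Trim Galore 0.5.0, aligned them with Bowtie2 2.3.4.2, removed duplicates with Picard 2.22.1 and counted extended reads in bins; they deposited counts and CPM of IP and input, and a signal, which is the IP CPM minus a constant per file. The deposited normalized counts and the TRA-1 peak lists were not used here. The text names the members, their nearest piRNAs on each side, the 2 most similar piRNAs per member, the female panel and overlapping genes. Other piRNAs named (those just outside the rankings and the male panel) were added after their values were seen. Same-numbered libraries did not deviate together, with correlations from -0.455 to 0.117, so the numbers were not used as pairs. No replicate pair was as close as sampling alone allows: chi-square over its degrees of freedom was at least 2.44. Alternatives were other scalings, tools, filters, samples in the fit, a replicate block and each library left out.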

Additional observations from a re-analysis of the deposited data

How the results depend on the processing

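The median log2 change of the 6 members in WT oog. over WT spe. (3.68) was 2.945 with DESeq2, 2.9379 with RLE size factors, 4.5849 with miRNA totals and 2.7071 for piRNAs with a mean of at least 10 counts. In snpc-1.3(-) spe. over WT spe. (2.0993) it was 1.4417 with DESeq2, 1.445 with RLE, 1.396 with miRNA totals, 1.4546 with all-feature totals, 1.3106 with the count minimum and 1.4058 with only these 2 groups fitted. In the same order of settings 21ur-6516 turned there to -0.092685, -0.26225, -0.22636, -0.19156, -0.4026 and -0.23485.

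The count minimum left 6759 piRNAs to test, against 13982 in the other settings, so its counts are over fewer piRNAs. piRNAs called higher in WT oog. (4278) were 2308 with DESeq2, 2815 with RLE and 2076 with the minimum. Those called lower (3563) were 2222 with miRNA totals. Those called higher in snpc-1.3(-) spe. (3576) were 1979 with DESeq2, 2317 with RLE, 1961 with miRNA totals, 2160 with all-feature totals, 1943 with the minimum and 2061 with 2 groups. In snpc-1.3(2xtbs) oog. those called higher (1580) were 459 with miRNA totals and 737 with all-feature totals, and those called lower (625) were 301 with DESeq2, 2256 with miRNA totals and 1570 with all-feature totals. The causes were not tested.

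Counts of neighbours are out of 59 tested, fewer with the minimum, and out of 196 within 5 kb. Neighbours called higher in WT oog. (19) were 11 with DESeq2, 12 with RLE, 31 with miRNA totals, 11 with the minimum and 68 within 5 kb. Those called lower (12) were 7 with miRNA totals and 50 within 5 kb. With miRNA totals, 5408 of all 13982 piRNAs were called higher in WT oog. and 2222 lower. Higher in snpc-1.3(-) spe. (18) were 6 with DESeq2, 7 with RLE, 6 with miRNA totals, 7 with all-feature totals, 4 with the minimum, 4 with 2 groups and 50 within 5 kb, and lower (12) were 7 with the minimum and 45 within 5 kb. Higher in snpc-1.3(2xtbs) oog. (5) were 3 with DESeq2, 8 with RLE, 0 with miRNA totals, 2 with all-feature totals, 3 with the minimum, 8 with 2 groups and 16 within 5 kb, and lower (1) were 0 with DESeq2, 13 with miRNA totals, 11 with all-feature totals and 5 within 5 kb.

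Of the 4 members tested in snpc-1.3(2xtbs) oog. over WT oog., 0 passed, against 2 with miRNA totals, 1 with all-feature totals and 1 with only 2 groups. There 21ur-296 turned to -0.43301 with miRNA totals and -0.25793 with all-feature totals, and 21ur-6682 to -0.48662 and -0.31395. Same-numbered libraries shared only a number, and with the number as a replicate block 2 members passed (21ur-6516, edgeR adjusted p = 0.0111, and 21ur-6297, 0.0184) and 2 neighbours were called lower. The ChIP log2 ratio of snpc-1.3::3xflag over N2 at the bin of 21ur-6516 was 1.8188 with the deposited signal and 1.0784 over 3 bins, and at the bin of 21ur-6297 it was 2.6711 with the signal. At that bin the N2 IP was 11.6 and 11.2 CPM, little above the constants of 10.5 CPM that the signal subtracts. The value of 2.6711 therefore rests on an N2 signal near its floor.

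With each library left out, members passing ranged from 0 to 2 and their median change in snpc-1.3(2xtbs) oog. from -1.31, without snpc-1.3(2xtbs) oog. replicate 3, to -0.055955. piRNAs called lower there ranged from 147 to 881, with 147 and 196 without WT oog. replicates 1 and 2, and 273 and 224 without snpc-1.3(2xtbs) oog. replicates 1 and 2. Neighbours called there ranged from 3 to 8 higher and from 0 to 4 lower, and neighbours called higher in snpc-1.3(-) spe. from 10, without its replicate 2, to 17. 21ur-6682 turned to -0.05309 without WT oog. replicate 2, and to -0.01755 and -0.01099 without snpc-1.3(2xtbs) oog. replicates 1 and 2, with 0.14191 as its highest value, and 21ur-6297 ranged from -1.3417 without replicate 3 to 0.14915 without replicate 1. Depth limits the spe. groups most, where 21ur-4954 had 2 to 3 counts per WT spe. library and 21ur-6297 had 3 per snpc-1.3(-) spe. library.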
